A study of Mus musculus with 26 samples.

Results

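The clustered protocadherin genes encode cell-surface adhesion proteins and lie in 3 neighbouring arrays on mouse chromosome 18. Here they comprised 58 genes, namely 14 of the Pcdha array, 22 of the Pcdhb array and 22 of the Pcdhg array. They were chosen by name, without any measured value, from the 47606 genes of the expression table, and all 58 were found in the GENCODE M21 annotation of mm10. Each member was described by its expression, by CTCF binding and chromatin accessibility within 1 kb of the start of its variable exon (called its promoter here), and by the methylation of the cytosines in those places.

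The study introduced EpiMethylTag, in which Tn5 transposase carrying methylated adaptors tags open chromatin (M-ATAC) or immunoprecipitated chromatin (M-ChIP) before bisulfite conversion, so that binding or accessibility and DNA methylation are read from the same fragments. KH2 mouse embryonic stem cells (mESC), grown with LIF and serum on irradiated feeder cells that were removed by pre-plating, gave 4 M-ATAC, 2 unconverted M-ATAC-NC, 2 ATAC, 2 CTCF M-ChIP, 2 unconverted CTCF M-ChIP-NC and 2 CTCF ChIP samples. A merged RNA-seq column of KH2 mESC labelled WT gave expression, and the labels of the other KH2 samples name no genotype or treatment. Klf4-/- mESC without KLF4, or with WT or R462A mutant KLF4 expressed from a doxycycline-inducible lentivirus, gave 6 further peak lists. Nothing in the labels says whether samples of a group came from separate cultures, so the p-values below measure only the spread between these samples, which may be technical. By the paper, the unconverted controls were aliquots set aside ahead of conversion, so they are not independent of the converted samples.

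In each Pcdha and Pcdhg gene a large variable exon carries its own promoter and is spliced to constant exons shared by the whole array, whereas each Pcdhb gene has its coding sequence in a variable exon alone. In neurons a few promoters per cell are switched on by chance, giving the cell a surface identity that its own branches recognise and avoid. CTCF binds a conserved element in most of these promoters, and with cohesin it brings the chosen promoter to enhancers that lie downstream. The C-type genes (Pcdhac1, Pcdhac2, Pcdhgc3, Pcdhgc4 and Pcdhgc5) are less subject to this choice, and Pcdhac2, Pcdhb1, Pcdhgc4 and Pcdhgc5 are known to lack the element.

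Most members were nearly silent in mESC while their promoters held CTCF. Only 4 of 58 members reached 1 TPM (the share of transcripts, scaled to the same total in each library), against 57.2% of 21550 other protein-coding genes and 28.2% of all genes of the table. A merged CTCF M-ChIP region lay at 47 of 58 member promoters, against 11.5% of 21894 promoters of other protein-coding genes. A merged M-ATAC region lay at 17 of 58, against 59.9% of the other promoters. The merged columns and lists hold no replicates, so these shares were not tested.

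**Figure D1:**
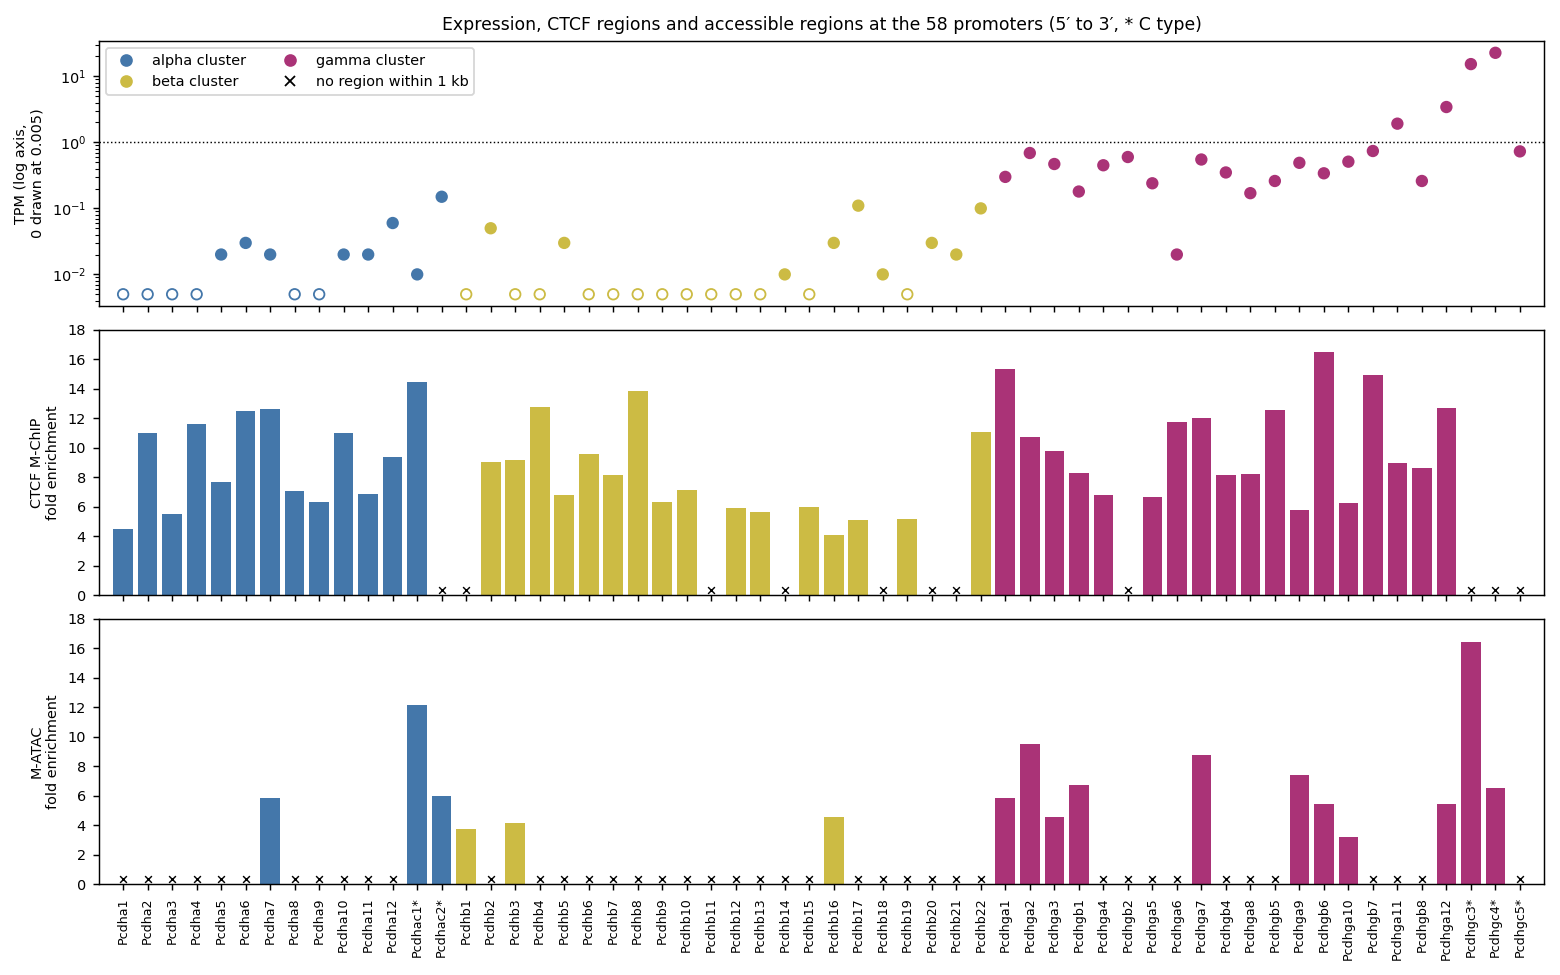
TPM on a log axis (top), fold enrichment of the strongest merged CTCF M-ChIP region (middle) and of the strongest merged M-ATAC region (bottom) within 1 kb of the variable exon start, for the 58 genes in 5′ to 3′ order. Open circles are genes at 0 TPM, drawn at 0.005, crosses mark promoters with no region, and the dotted line is 1 TPM. The 4 genes above the line are all in the gamma array, and CTCF bars stand at 47 genes against 17 M-ATAC bars.

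The members at or above 1 TPM were Pcdhgc4 at 22.73 TPM, Pcdhgc3 at 15.33 TPM, Pcdhga12 at 3.43 TPM and Pcdhga11 at 1.92 TPM. The next levels were those of Pcdhgb7 at 0.74 TPM and Pcdhgc5 at 0.73 TPM. All 6 of these genes belong to the gamma array, and Pcdhgc3 and Pcdhgc4 alone made up most of the 51.48 TPM summed over the 58 members, since the other 56 summed to 13.42 TPM.

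The arrays stood at different levels. The 22 gamma genes ranged from 0.02 to 22.73 TPM with a median of 0.48 TPM, and none was at 0. The 14 alpha genes ranged from 0 to 0.15 TPM with 6 at 0, and the highest of them was the C-type gene Pcdhac2. The 22 beta genes ranged from 0 to 0.11 TPM with 13 at 0, and the highest were Pcdhb17 at 0.11 TPM and Pcdhb22 at 0.10 TPM. In all, 19 of 58 members (32.8%) were listed at 0, against 21.05% of the other protein-coding genes and 50.1% of all genes of the table. The order of neighbouring levels could not be tested, since the table holds 1 merged column.

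The values of the alpha and gamma genes carry a doubt about counting. The table gives 22.73 TPM to the identifier ENSMUSG00000023036, which GENCODE M21 names Pcdhgc4 but which the table prints under the symbol Pcdhga8, beside a second row of that symbol, whose identifier is that of Pcdhga8, at 0.17 TPM. Members were matched by identifier. The 22 gamma genes share their constant exons, as do the 14 alpha genes theirs, so that reads there cannot be assigned to 1 gene. Of the 5768 exonic bases of Pcdha4, listed at 0 TPM, 404 belonged to no other annotated gene, 3 of them in its variable exon. Each other alpha gene at 0 had its whole variable exon to itself. Of the 5596 exonic bases of Pcdhgc4, 3477 belonged to no other annotated gene, and of the 5499 of Pcdhgc3, 1821 did. For Pcdhga10, at 0.51 TPM, each of its 4732 exonic bases also belonged to another annotated gene. The name of the deposited table marks it as unstranded, and the antisense gene BC037039 overlaps the start of Pcdhgc3, so that their reads could not be told apart.

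The cells carried the markers of mESC. All 10 embryonic stem cell markers lay at 95.09 TPM or more, with Pou5f1 at 656.93 TPM and Nanog at 461.4 TPM. Markers of other cells were present too. Of 10 fibroblast markers, 9 reached 1 TPM (Fn1 at 611.6 TPM, Col1a1 at 48.69 TPM, Lum at 0.08 TPM; summed level 749.07 TPM), as did 7 of 9 neuronal markers (Stmn2 at 353.74 TPM, Tubb3 at 24.02 TPM, Dcx at 0.01 TPM; summed level 413.71 TPM) and 3 of 6 endoderm and trophoblast markers (Gata6 at 18.17 TPM, Cdx2 at 0.12 TPM; summed level 36.85 TPM). The part of such cells in the protocadherin levels was not tested, and in a bulk sample fewer cells expressing a gene and less RNA per cell cannot be told apart.

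Of 12 non-clustered protocadherins, which are encoded elsewhere and have no shared constant exons, 2 reached 1 TPM (Pcdh1 at 4.51 TPM and Pcdh19 at 1.21 TPM). Of 21 genes linked to protocadherin promoter choice, 20 reached 1 TPM, among them Ctcf at 82.94 TPM, the cohesin subunit Rad21 at 222.42 TPM, the maintenance methyltransferase Dnmt1 at 106.69 TPM and Smchd1, a repressor of the arrays, at 53.73 TPM. The exception was Lhx2, a factor of olfactory neurons, at 0.98 TPM. Of 12 partners of the cytoplasmic domains, 11 reached 1 TPM, led by Nckap1 of the WAVE complex at 83.23 TPM, and Ret was at 0.58 TPM.

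CTCF at the promoters was read from 6 samples and from the merged list. Of the 47 promoters with a merged region, the median fold enrichment over the local background was 8.61, against 9.91 at the 2526 other protein-coding promoters that had one and 9.69 over all 38881 merged regions. By kind, a merged region lay at 12 of 12 alpha genes outside the C type (median fold 8.52), 16 of 22 beta genes (6.97), 12 of 12 gamma A genes (9.37), 6 of 7 gamma B genes (10.6) and 1 of 5 C-type genes. Over single samples, 15 promoters had a region in all 6 CTCF samples, 39 in 4 or more, and 7 in none.

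The strongest CTCF region was that of the gamma B gene Pcdhgb6, with fold enrichments of 15.7 and 8.42 in CTCF M-ChIP, 11.7 and 11.8 in CTCF M-ChIP-NC, and 20.4 and 23.4 in CTCF ChIP (16.5 in the merged list, chr18:37741814-37742142). Pcdhga1, the first gene of the gamma array, had 11.2 and 8.77, then 9.72 and 9.21, then 18.4 and 23.3 in the same order (15.4 merged). Pcdhgb7 had 11.6 and 11.01, 11.2 and 6.82, and 15.2 and 16.1 (14.9 merged). All 3 genes had a region in every CTCF sample, the lowest being that of Pcdhgb7 in CTCF M-ChIP-NC replicate 2. In each of them the 2 CTCF ChIP samples lay above the other 4. Median folds over whole lists were also higher in CTCF ChIP, at 10.05 and 11.52 against 6.84 to 8.43 in the other 4. Whether the higher folds were particular to these genes was not tested.

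Pcdhac1 was the only C-type gene with a merged CTCF region, with 13.1 and 8.01 in CTCF M-ChIP, 10.8 and 6.95 in CTCF M-ChIP-NC, and 17.5 and 22.0 in CTCF ChIP (14.4 merged). At the lower end of the merged list were Pcdhb16 at 4.07, Pcdha1 at 4.47, Pcdhb17 at 5.08 and Pcdhb19 at 5.20. Pcdhb16 had a region in 4 of 6 samples, at 5.26 and 5.31 in CTCF M-ChIP-NC and 4.22 and 4.35 in CTCF ChIP, and in neither CTCF M-ChIP replicate although the merged list has one. Pcdhb19 had a region in only 2 of 6 samples, at 4.03 and 6.34.

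No merged CTCF region lay at 11 of the 58 promoters. The 4 genes known to lack the element (Pcdhac2, Pcdhb1, Pcdhgc4 and Pcdhgc5) had none in any of the 6 samples. Neither did Pcdhgc3, Pcdhb14 and Pcdhb18. The remaining genes had regions in single samples: Pcdhb11 in 3 of 6 samples (5.001, 8.07 and 11.7), Pcdhb21 in 2 of 6 (7.21 and 6.17), Pcdhb20 in 1 (4.98) and Pcdhgb2 in 1 (5.82). A missing region at these last 4 genes thus held for some samples and not for others, and the peak lists give no read depth.

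Repeated sequence, where reads may not be placed, was measured in the same windows. Only exact 50-base matches in the unconverted genome counted, so near matches and likeness after bisulfite conversion were missed. Among the 11 promoters without a merged region, 10 held no 50-base word that also occurs elsewhere in the genome, and the exception was Pcdhb11 with 12.2% of its words. Among the 47 promoters with a region, 15 held no such word and the median was 4.30%, up to 17.9% at Pcdha7. Within the merged CTCF regions themselves, the share reached 59.9% at Pcdha8 and 44.9% at Pcdha7, so reads may not be placed there.

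**Figure D2:**
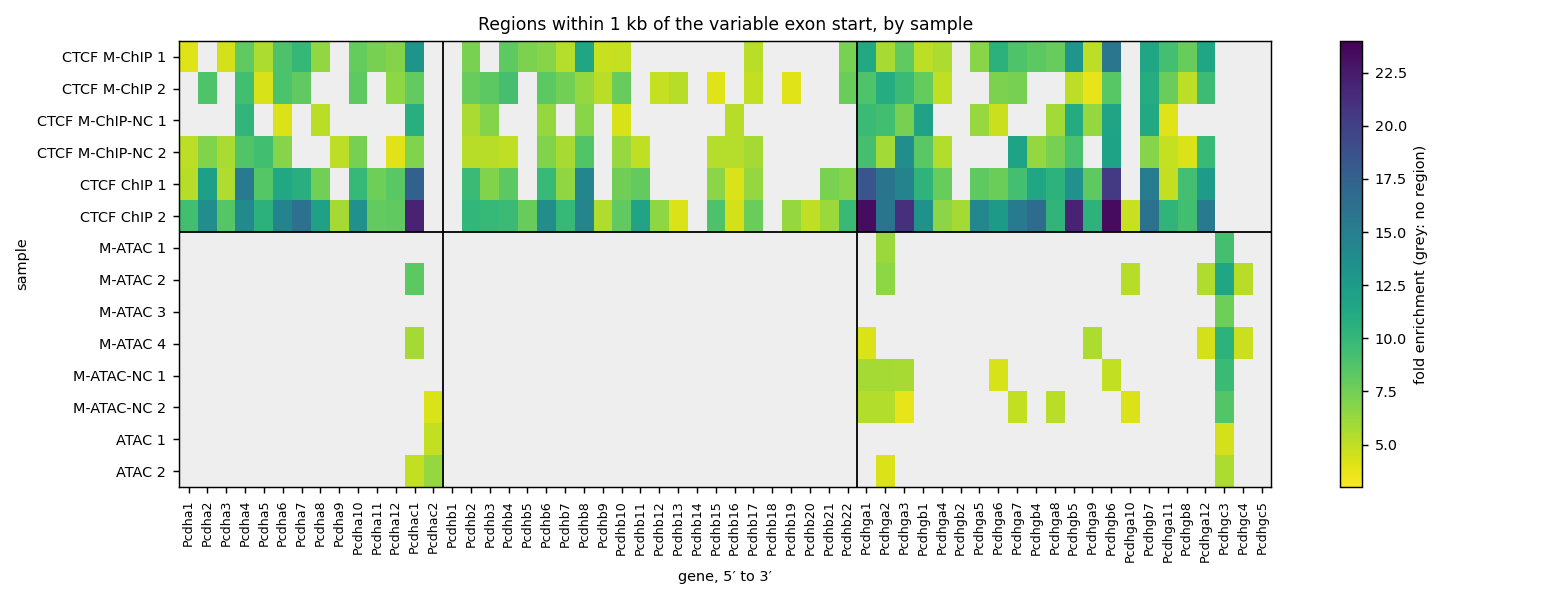
Fold enrichment of the strongest region within 1 kb of the variable exon start for each gene (columns, 5′ to 3′) in each sample (rows), with grey for no region; lines divide the arrays, and CTCF samples from accessibility samples. The CTCF rows are filled at 22 to 51 of 58 genes, and the accessibility rows at 1 to 8, with Pcdhgc3 filled in all 8.

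Counts by sample showed how far the calls moved between libraries. CTCF M-ChIP had a region at 38 and 36 member promoters, CTCF M-ChIP-NC at 22 and 35, and CTCF ChIP at 42 and 51. The same samples had regions at 7.25% to 16.3% of the other protein-coding promoters. The CTCF lists held 22261 to 49633 regions, and the shortest list, that of CTCF M-ChIP-NC replicate 1, also had the fewest member promoters. The part of list length in these counts was not tested.

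By an exact permutation test (two-sided, adjusted by Benjamini-Hochberg over the 8 comparisons made), CTCF M-ChIP at 37 ± 1.41 promoters (SD, n = 2) did not pass against CTCF M-ChIP-NC at 28.5 ± 9.19 (n = 2) or against CTCF ChIP at 46.5 ± 6.36 (n = 2), with p = 0.333 and adjusted p = 0.444 in both. The groups did not overlap in either comparison, but 0.333 is the smallest p that 2 samples against 2 allow. At the other protein-coding promoters, CTCF M-ChIP (10.03% and 7.61%) did not overlap CTCF ChIP (12.4% and 16.3%) either, but overlapped CTCF M-ChIP-NC (7.25% and 8.59%). Whole lists held 32911 and 31282 regions in CTCF M-ChIP, 22261 and 30470 in CTCF M-ChIP-NC, and 40046 and 49633 in CTCF ChIP. Whether either lack of overlap was particular to the members was not tested. Over the arrays with 50 kb on each side, CTCF M-ChIP had 53.5 ± 4.95 regions against 42.5 ± 13.4 in CTCF M-ChIP-NC (exact permutation p = 0.667, adjusted p = 0.762) and 78.5 ± 12.02 in CTCF ChIP (exact permutation p = 0.333, adjusted p = 0.444).

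Accessibility at the promoters was sparse. M-ATAC had a region at 2, 6, 1 and 6 of the 58 promoters, M-ATAC-NC at 6 and 8, and ATAC at 2 and 4, while the same samples had regions at 41.2% to 51.0% of the other protein-coding promoters. No beta promoter had an accessible region in any of the 8 samples, although 3 had one in the merged M-ATAC list. In all, 44 of 58 member promoters had none in any sample, and 12 of the 14 that had one were gamma genes.

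**Figure D3:**
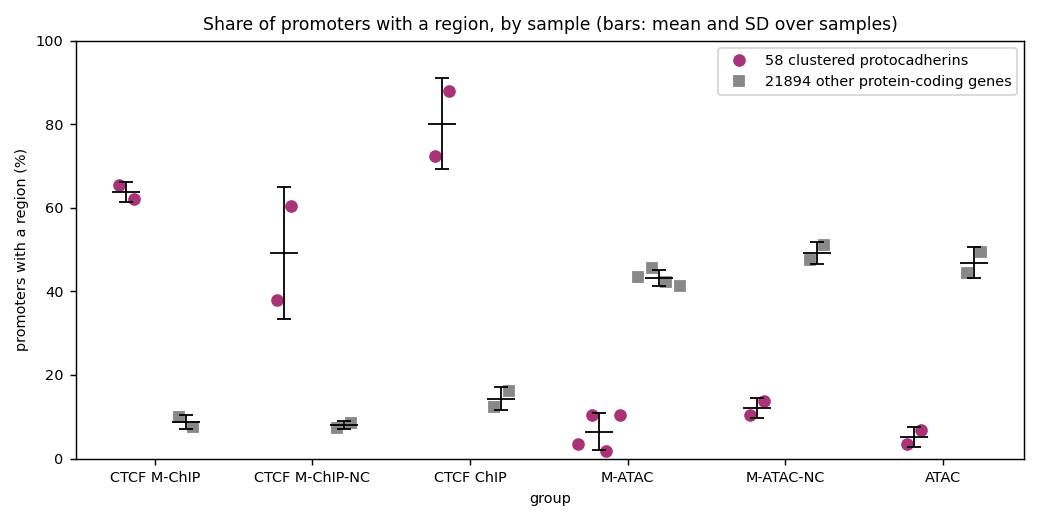
Share of the 58 clustered protocadherin promoters (circles) and of 21894 other protein-coding promoters (squares) with a region, for each sample, with the mean and SD of each group. For CTCF the circles lie at 37.9% to 87.9% above squares at 7.25% to 16.3%, and for accessibility they lie at 1.72% to 13.8% below squares at 41.2% to 51.0%.

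Pcdhgc3 was the member with a region in all 8 accessibility samples, with fold enrichments of 9.19, 11.5, 7.63 and 10.4 in M-ATAC, 9.70 and 8.63 in M-ATAC-NC, and 4.37 and 5.59 in ATAC (16.4 in the merged list, chr18:37806142-37806523, its summit at -86 bp from the start of the variable exon). The 2 ATAC samples were the lowest of the 8. Their median folds over whole lists were the lowest too, at 5.58 and 5.53 against 6.27 to 7.499 in the other samples. Whether the lower folds were particular to Pcdhgc3 was not tested. Pcdhgc3 is known as a broadly expressed gamma gene, and it had no CTCF region within 1 kb in any sample. Its CTCF region of the merged list lay instead near the end of its variable coding sequence, 2390 bp after the coding start, at a fold of 5.23.

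Pcdhga2 followed with a region in 5 of 8 samples, at 6.13 and 6.55 in M-ATAC replicates 1 and 2, 5.86 and 5.43 in M-ATAC-NC, and 4.14 in ATAC replicate 2 (9.52 merged). Pcdhac1 had regions in 3 of 8, at 8.25 and 5.84 in M-ATAC replicates 2 and 4 and 4.96 in ATAC replicate 2 (12.2 merged). Pcdhac2 had them in 3 of 8 as well, at 4.23 in M-ATAC-NC replicate 2 and 4.95 and 6.34 in ATAC, and in no M-ATAC replicate (6.01 merged). Pcdhgc4 had 5.29 and 4.71 in M-ATAC replicates 2 and 4 (6.56 merged). For each of these 4 genes at least 1 group had the region in some of its samples and not in others.

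The other merged M-ATAC promoters were weaker or less often seen. Pcdhga7 at 8.74, Pcdhga9 at 7.41 and Pcdhgb6 at 5.48 had a region in 1 of 8 samples each, Pcdhga12 at 5.48 in 2, Pcdhga1 at 5.82 in 3, and Pcdhgb1 at 6.71 and Pcdha7 at 5.82 in none. Pcdhga3 (4.58) and Pcdhga10 (3.21) had one in 2 samples each, and Pcdhb1 (3.74), Pcdhb3 (4.16) and Pcdhb16 (4.55) in none. Of the 18 merged M-ATAC regions at member promoters, 6 overlapped no region of any of the 8 samples and 10 overlapped none of the 4 M-ATAC replicates.

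By the exact permutation test, M-ATAC at 3.75 ± 2.63 promoters (n = 4) did not pass against M-ATAC-NC at 7 ± 1.41 (n = 2; p = 0.267, adjusted p = 0.444) or against ATAC at 3 ± 1.41 (n = 2; p = 0.867, adjusted p = 0.867), and both pairs of groups overlapped. Over the arrays with their flanks, M-ATAC had 15.5 ± 2.65 regions against 23.5 ± 4.95 in M-ATAC-NC, where the groups did not overlap (12 to 18 against 20 and 27; exact permutation p = 0.0667, the smallest that 4 against 2 allow, adjusted p = 0.444). Against ATAC, at 11.5 ± 6.36, the groups overlapped (exact permutation p = 0.333, adjusted p = 0.444). At the other protein-coding promoters M-ATAC and M-ATAC-NC did not overlap either (41.2% to 45.7% against 47.4% and 51.0%). That share is another measure than a count of regions. Whole lists held 26304 to 29331 regions in M-ATAC and 29293 and 32999 in M-ATAC-NC, which overlapped. Whether the lack of overlap was particular to the arrays was not tested.

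CTCF and accessibility met at few members. Among the 47 promoters with a merged CTCF region, 13 (27.7%) also had a merged M-ATAC region and 34 did not. Of other protein-coding promoters with CTCF, 88.1% had an M-ATAC region. Since most members were silent, other protein-coding genes under 1 TPM give a closer view: 6.32% of 9224 had a CTCF region at the promoter and 24.9% had an M-ATAC region, and of those with CTCF, 69.0% of 583 had both. Counted by region, 11 of the 52 merged CTCF regions at member promoters (21.2%) overlapped a merged M-ATAC region, against 22.0% of all merged CTCF regions. Pcdhac2, Pcdhb1, Pcdhgc3 and Pcdhgc4 had an accessible region and no CTCF region, and 7 members had neither.

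CTCF motif matches at the promoters lay on 1 strand. The deposited list holds matches to the CTCF matrix MA0139.1 inside merged CTCF M-ChIP regions, so a promoter without a match is not thereby shown to lack the motif. All 36 matches within 1 kb of a variable exon start, at 31 promoters, lay on the strand of the gene. At promoters of other protein-coding genes, 58.3% of 2766 matches did. All 58 members lie on the plus strand, so the 36 matches are all forward on the chromosome.

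The matches fell into 2 narrow intervals relative to the coding start. Of the 36, 29 lay upstream of it, with their centres at -325 to -113 bp and a median of -220 bp, at 9 sites in the alpha array, 16 in the beta array and 4 in the gamma array. The other 7 lay inside the variable coding sequence of Pcdha1 and Pcdha3 to Pcdha8, 453 to 465 bp after the coding start. Within 1 kb of the variable exon start, matches inside the coding sequence were found in the alpha array alone, and 3 of those genes (Pcdha3, Pcdha7 and Pcdha8) had a match there and none upstream. Pcdhac1 had 2 matches upstream, at -325 and -189 bp.

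**Figure D4:**
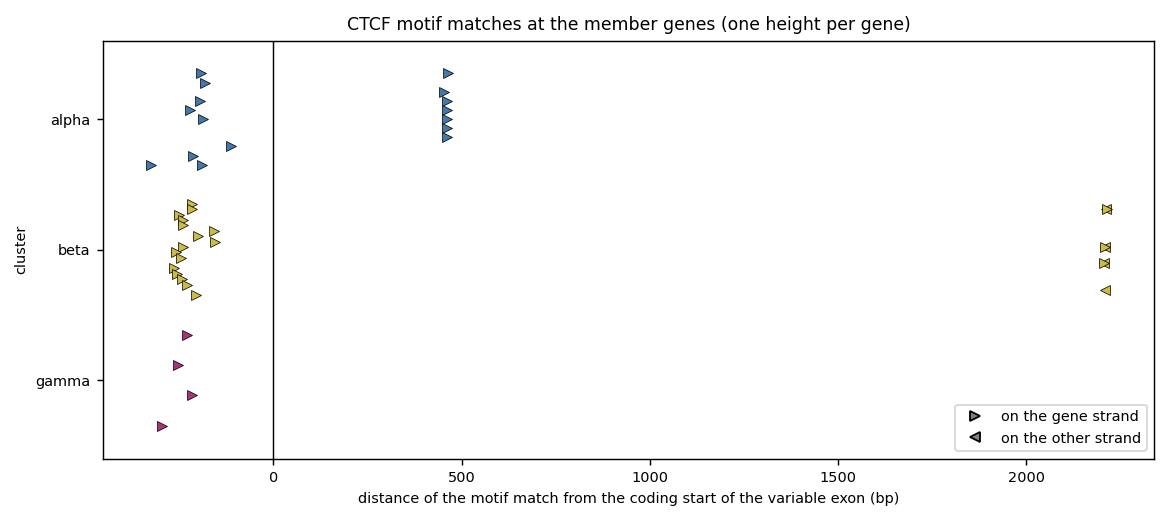
Centre of each CTCF motif match at a member gene in bp from the coding start of its variable exon (vertical line), by array, with 1 height per gene; arrowheads to the right are on the gene strand. All 36 matches up to 465 bp after the coding start point to the right, and 7 matches in the beta array stand 2205 to 2213 bp after it on both strands.

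The gamma array had CTCF without deposited matches more often. Only 4 of its 18 promoters with a merged CTCF region held a match (Pcdhga3, Pcdhgb1, Pcdhga7 and Pcdhga12), against 16 of 16 in the beta array and 11 of 13 in the alpha array. The strongest regions of the gamma array, those of Pcdhgb6, Pcdhga1 and Pcdhgb7, were among those without a match. The median score of the 29 upstream matches was 11.1, below that of the 7 coding matches at 17.4 and of all 43074 matches of the list at 16.3.

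The promoter matches were rich in CpG at the 2 motif positions where methylation is known to matter for binding. A CpG at position 15 of the match (C12 in the core numbering) was present in 33 of 36 promoter matches (91.7%), against 31.1% of all matches of the list, and a CpG at position 5 (C2) in 12 of 36 (33.3%), against 5.51%. All 16 beta promoter matches held a CpG at position 15, as did all 7 coding matches of the alpha array. The whole list also holds matches outside promoters, and the CpG of matches at other promoters was not counted apart.

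In CTCF M-ChIP these motifs were read almost without methylation. Over 61 cytosines with at least 5 reads in the 36 matches, 10 of 578 reads were methylated, which is 1.73% (95% Wilson interval 0.942% to 3.16%), and 54 of the 61 had no methylated read. Over all motif cytosines of the list the share was 10.3%, and 61.4% had no methylated read. Matches at other promoters were not counted apart, so no low methylation particular to the members is shown. Coverage at the 61 cytosines was 5 to 20 reads with a median of 9, and the intervals cover counting error only. CTCF M-ChIP enriches for fragments bound by CTCF, so these values do not describe the promoters at large. The share of background fragments among the reads was not measured.

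The beta matches were the lowest with many reads, at 1 of 310 reads (0.323%, 0.0570% to 1.80%), and the gamma matches had 0 of 40 reads, which allows up to 8.76%. The upstream alpha matches had 4 of 138 reads (2.90%, 1.13% to 7.22%) and the coding alpha matches 5 of 90 (5.56%, 2.40% to 12.4%). The 4 members with the most reads were Pcdhac1 with 3 of 64, Pcdha6 with 4 of 57, Pcdhb8 with 0 of 56 and Pcdhb4 with 0 of 53. No member reached 20% over its promoter matches. The highest single cytosine, at 33.3%, was 2 of 6 reads in the coding match of Pcdha5, and in Pcdha6 the C12 cytosine of the coding match had 3 of 17.

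Methylation of accessible copies was read from M-ATAC. In M-ATAC, 23 of 2077 reads were methylated over 223 cytosines of member promoters (1.11%, 0.739% to 1.66%), against 1.87% over the whole table. Pcdhgc3 had 2 of 902 reads over 53 cytosines (0.222%), Pcdhac2 1 of 230 (0.435%) and Pcdhac1 1 of 207 (0.483%). These 3 promoters supplied 1339 of the 2077 reads, and without them, a split chosen after their values were seen, 19 of 738 reads were methylated (2.57%, 1.65% to 3.99%), an interval that holds the 1.87% of the whole table. Higher values rested on few reads, such as Pcdhgc4 at 4 of 80 (5%, 1.96% to 12.2%), Pcdhga3 at 3 of 41 (7.32%, 2.52% to 19.4%) and Pcdhga1 at 3 of 50 (6%, 2.06% to 16.2%). M-ATAC enriches for open alleles, so these values do not describe the promoters at large, and promoters without a region gave no values.

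**Figure D5:**
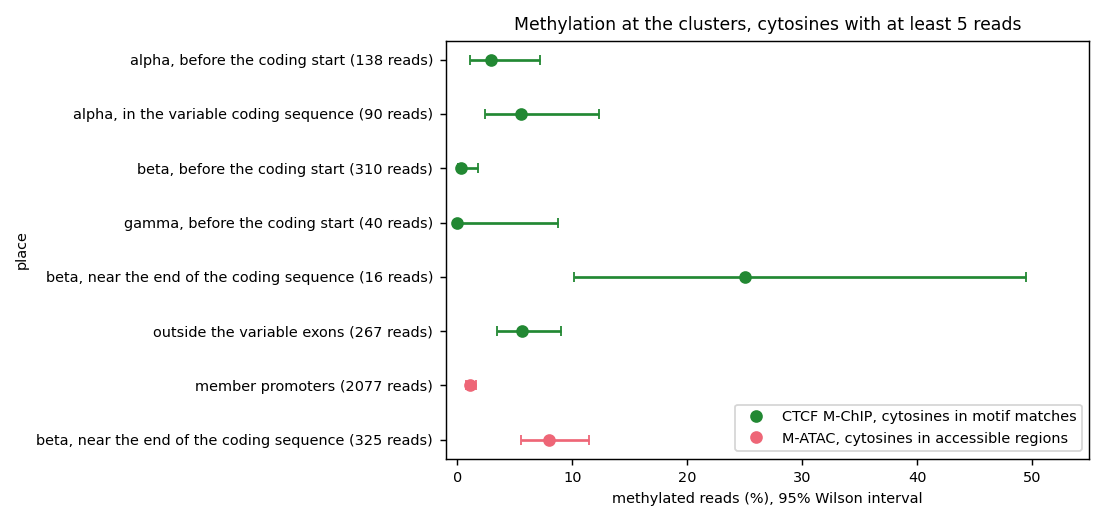
Methylated reads in percent with 95% Wilson intervals, over cytosines with at least 5 reads, for CTCF motif matches (CTCF M-ChIP) and for accessible regions (M-ATAC) at the arrays. Promoter values lie at 0% to 5.56%, and those near the end of the beta coding sequences at 25% over 16 motif reads and 8% over 325 reads of accessible regions.

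The beta array held a second row of CTCF regions at the far end of its variable exons. At 7 of 22 beta genes (Pcdhb3, Pcdhb8, Pcdhb10, Pcdhb13, Pcdhb14, Pcdhb18 and Pcdhb20) a merged CTCF region had its summit 1988 to 2234 bp after the coding start, within coding sequences of 2337 to 2397 bp, at folds of 5.59 to 10.98. Of these 7 regions, 5 overlapped a merged M-ATAC region. Near the coding end, 11 merged M-ATAC regions lay at 10 beta genes, with folds of 3.74 to 13.3, although 5 of the 11 overlapped no region of any of the 8 samples. The strongest, in Pcdhb14 (chr18:37449704-37450100), overlapped regions of 3 of 4 M-ATAC, 1 of 2 M-ATAC-NC and 1 of 2 ATAC samples, while Pcdhb14 had no CTCF or accessible region at its promoter.

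These distal sites differed from the promoters in the strand and CpG content of their motif matches and in methylation. Their 7 motif matches, at Pcdhb3, Pcdhb10, Pcdhb14 and Pcdhb20, lay 2205 to 2213 bp after the coding start, and at the first 3 genes a match on each strand covered nearly the same bases. None of the 7 held a CpG at position 15 or 5. Over the 11 accessible regions, 26 of 325 reads were methylated (8%, 5.52% to 11.5%), above the interval of the promoters. Repeated 50-base words reached 30.6% in the CTCF region of Pcdhb20 and 15.2% in that of Pcdhb18. They reached up to 50.7% in the accessible regions near the coding end, so reads may be shared with sister genes there. Repeats were not particular to the distal sites, since the promoter CTCF regions of Pcdha8 and Pcdha7 held 59.9% and 44.9%.

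Outside the promoters, the arrays and their 50 kb flanks (974377 bp in all) held 19 further merged CTCF regions. With the 52 at promoters this made 71 regions, or 72.9 per Mb, against 14.3 per Mb over the genome, and the 55 merged M-ATAC regions made 56.4 per Mb against 24.5 per Mb. Of the 19, 11 (57.9%) overlapped a merged M-ATAC region, against 11 of 52 at promoters. Of the 13 motif matches that lay outside the variable exons, 11 were on the minus strand, opposite to the promoter matches, and 2 on the plus strand.

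The strongest of these lay beyond the gamma array, in an intron of the neighbouring gene Diaph1 (chr18:37852174-37852542), with a fold of 16.1 and 8.62 to 21.1 in the 6 samples. It held 2 matches, both on the minus strand, whose cytosines had 2 of 30 and 6 of 72 reads methylated. A second Diaph1 site (chr18:37883490-37883870, fold 14.2, 8.57 to 15.8 in the samples) held 1 match on each strand. Both were present in all 6 CTCF samples and overlapped M-ATAC regions.

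Between Pcdhga12 and Pcdhgc3, in introns of the gamma genes, a region at chr18:37772015-37772385 had a fold of 14.1 (4.10 to 18.6 in the 6 samples) with 1 match on the minus strand. It overlapped no M-ATAC region, and 5 of 20 reads of its motif were methylated (25%, 11.2% to 46.9%). Upstream of Pcdhga1, in an exon of 3222401L13Rik, a region at chr18:37655347-37655710 had a fold of 13.1 (7.14 to 19.8) with 1 match on the plus strand, 0 of 23 reads methylated, and accessible regions in all 8 samples. Downstream of the last constant exon of the alpha array, the interval where the enhancer HS5-1 is known to lie, 2 regions at chr18:37217400-37217594 (fold 10.1, 3.82 to 9.85 in the 6 samples) and chr18:37218223-37218553 (fold 7.77, in 5 of 6 samples) held 1 match each, both on the minus strand. The latter overlapped a merged M-ATAC region (fold 12.1) with 0 of 201 reads methylated. The files name no enhancer, so the place alone links these regions to it.

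Some accessible regions held no CTCF region. The strongest of the flanks was an M-ATAC region between the beta and gamma arrays (chr18:37568043-37568507, fold 20.3), seen in 4 of 4 M-ATAC and 2 of 2 M-ATAC-NC samples and in neither ATAC sample. In the same interval the promoter of Taf7 (80.3 TPM), a housekeeping gene that is no protocadherin, had a fold of 15.7 (chr18:37644048-37644402) with 1 of 896 reads methylated. In an annotated exon of Pcdhgc5, 3138 bp after the start of its variable exon, a region at a fold of 11.2 was present in all 8 samples, while the promoter of Pcdhgc5 had none in any.

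The KLF4 lists held few regions at the members. None of the 58 promoters had a region in the 2 WT KLF4 or the 2 R462A KLF4 lists, and 1, that of Pcdha12, had one in replicate 2 of the KLF4 ChIP of Klf4-/- cells without KLF4. Over the arrays and flanks the lists held 3 and 6 regions with WT KLF4, 3 and 0 with R462A KLF4, and 6 and 9 in the KLF4 ChIP of cells without KLF4. Whole lists were short, at 9843 and 12365, 7390 and 5821, and 9165 and 14841 regions in the same order. The share of other promoters in these lists was not counted, so no lack particular to the members is shown. The WT and R462A lists belong to samples titled as M-ATAC, but the lists themselves are named for KLF4, so which assay they show is in doubt.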

How the data were processed

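Per the submitters' processing notes, Trim Galore 0.4.4, Bismark 0.18.1 for converted reads, Bowtie2 for the others, and SAMtools 1.3 were used on mm10, and the authors removed duplicate reads. For every summit the deposited MACS2 lists (q of 0.01) hold the fold enrichment over local background as a ratio, beside a display score and the −log10 of p and q. The KLF4 lists of the authors, made with PeaKDEck, give a p-value. The authors' methylation tables, from merged replicates, give a count of methylated and of unmethylated reads and a percent per cytosine. Motif matches come with the score and p-value that the authors obtained from FIMO. The authors' merged RNA-seq column is in TPM, with the aligner and annotation not given in the sources used here. Which M-ATAC replicates were merged is not stated.

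Members were chosen by name and not by any measured value, but earlier results of these data were known when they and the gene lists were chosen. Members were matched to GENCODE M21 by symbol, and Pcdha10 and Pcdha11, which share a symbol there, by their RefSeq start. The promoter was 1000 bp on either side of the variable exon start (for other protein-coding genes, the gene's 5′ end), and an overlap of 1 bp counted. Cytosines needed 5 reads. Groups were compared by exact two-sided permutation tests with Benjamini-Hochberg adjustment over 8 comparisons. Overlap, test and interval code was tested on simulated data. Repeated words were 50-base words found elsewhere in GRCm38 on either strand. Named were the 6 members of highest TPM, the 12 of highest M-ATAC fold, the 4 highest and 4 lowest in CTCF fold, those without CTCF, the C-type genes and Pcdhb1, members whose promoter motif cytosines reached 20%, the 4 with most motif reads, and the 6 strongest CTCF regions outside promoters. Other names were chosen after their values were seen. Read depth is unknown, since the peak lists hold none. The work used scipy 1.17.1, pandas 2.3.3, numpy 2.4.6 and matplotlib 3.10.9 under python 3.11.15.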

Additional observations from a re-analysis of the deposited data

How the results depend on the processing

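Of 115 alternatives, 103 kept the direction and the side of the threshold or moved a value by less than its limit. Only regions found in every replicate left 30 promoters with CTCF and 1 (Pcdhgc3) with M-ATAC. A promoter window of 3000 bp raised the M-ATAC count to 28, since it takes in regions near the coding end, and promoter methylation in M-ATAC to 2.17%, whereas at least 10 reads lowered it to 0.456%. Without Pcdhgc3, Pcdhac2 and Pcdhac1, an alternative chosen after seeing the data, it was 2.57%. At 0.5 TPM 10 members passed, and at 5 TPM 2 did. At a motif p of at most 1e-05, 11 of 11 promoter matches were on the gene strand and their methylation was 4.72%. In promoters with a region, M-ATAC minus ATAC was 0.75 and turned to -0.25 without ATAC replicate 1, and over the arrays it was 4 and turned to -0.5. The promoter difference was 0 without M-ATAC replicate 2 or 4. With each sample left out in turn, the promoter differences ranged from -4.25 to -2.25 (M-ATAC minus M-ATAC-NC), -0.25 to 1.75 (M-ATAC minus ATAC), 2 to 15 (CTCF M-ChIP minus CTCF M-ChIP-NC) and -14 to -5 (CTCF M-ChIP minus CTCF ChIP), and those over the arrays from -11.5 to -4.5, -0.5 to 8.5, 1.5 to 20.5 and -33.5 to -16.5 in the same order.

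Numbers shared by replicates were not stated to mark a shared culture or aliquot, although the paper describes the unconverted controls as aliquots. The main tests treated converted and unconverted groups as independent. Between the groups compared, the differences between replicates 1 and 2 correlated by 0.00994 to 0.0326 across merged regions. With the replicate block, whose smallest p is 0.5 for 2 pairs, the promoter differences were -3, 1, 8.5 and -9.5 and those over the arrays -7.5, 4.5, 11 and -25 in the same order. No difference passed with or without the block. Depth, unknown here, limits every missing region, and a cytosine with 5 reads moves in large steps.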
